A study of Homo sapiens with 8 samples.

Results

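Footprints of translating ribosomes were compared in 2 wild-type (WT) clones of BJ cells without and with 4-hydroxytamoxifen (4-OHT), across genes measured in both states. BJ is an established line of human skin fibroblasts, and the labels give all of its cells here as BJ-HRAS. The members are 4 of the series' 8 libraries, chosen by their labels: WT clones 15 and 54 collected without 4-OHT, and the same clones collected after 7 days with 100 nM (Z)-4-hydroxytamoxifen. The other 4 libraries come from clones 66 and 69, knocked out for the small nucleolar RNA SNORA13, in the same states. They entered the fit for its estimate of spread and are described only in the closing comparison below. Each WT group is 2 independent clones, so p-values measure the spread between clones and libraries, and a response of BJ cells outside these clones was not measured.

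Ribosome profiling sequences the short stretches of mRNA that ribosomes shield from nuclease, and the number of such footprints on a gene reflects how much of its mRNA there is and how heavily it is translated. HRAS is a small GTPase that passes growth signals to the RAF-MEK-ERK kinase cascade. Lasting oncogenic HRAS signalling drives fibroblasts out of the cell cycle into senescence, in which they secrete proteases and cytokines and change the matrix around them. 4-OHT is a ligand that activates engineered fusion proteins carrying a mutant estrogen receptor; whether HRAS is such a fusion here is not given in the labels. RNA levels were not analysed here, so mRNA amount and translation cannot be told apart, nor can fewer cells making an mRNA from less of it per cell. The libraries without and with 4-OHT are in separate tables, so 4-OHT and any batch of a table cannot be told apart either.

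The WT libraries held about 1321642 (clone 15) and 790164 (clone 54) footprints without 4-OHT and 1685885 and 588712 with it, as estimated from the step between low values. The deposited values are RPKM over each gene's whole span. They were multiplied by that span to give RPM, the footprints of a gene in each 1000000 reads, which is the unit used throughout. This unit compares 1 gene between libraries. It does not compare levels between genes of different length. Of 10685 genes in both tables, 8012 had at least 10 estimated footprints in at least 2 WT libraries and were tested. Among 16 fibroblast markers all were tested, with a summed level of 97911 and 97727 without 4-OHT and 32029 and 38689 with it. Of the 16, 2 rose (VIM and S100A4) and 11 fell. Markers of other cell types were lower. Summed levels reached at most 71.6 for 14 leukocyte markers, 56 for 10 endothelial markers, 56 for 12 epithelial and keratinocyte markers and 10.1 for 7 adipocyte markers. The 8 smooth muscle and pericyte markers summed to 527 and 507 without 4-OHT and 215 and 188 with it. Of 7 melanocyte markers only MITF was listed, at 76.4 and 64.5 without and 36.8 and 13.6 with 4-OHT; its call as lower was lost under 8 of the 17 alternatives, among them leaving out untreated clone 15, untreated clone 54 or treated clone 54. Their part in the results was not tested.

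Of the tested genes 23.7% changed. With limma-trend on log2(RPM + 1), 1206 genes were higher with 4-OHT (15.1% of those tested) and 692 were lower (8.64%), at an adjusted p under 0.05. All 1898 had values in the 2 treated clones that did not overlap those of the 2 untreated clones. That is a weak criterion by itself, since 69.9% of all tested genes met it. The counts rest on both clones. Leaving out untreated clone 15 gave 682 higher and 364 lower, untreated clone 54 gave 594 and 353, treated clone 15 gave 700 and 537, and treated clone 54 gave 621 and 409. A group then rests on 1 library, assumed to vary like the others. For the lists below, leave-one-out counts are the lowest and highest over these 4 fits. The fit borrows its spread from the 4 knockout libraries too, and without the shallowest of them (clone 66 with 4-OHT) it called 1734 higher and 1104 lower.

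The split between rises and falls depends on how libraries are scaled. The median log2 fold change of all tested genes was 0.18 on the main scale, -0.08 after median-ratio scaling and -0.04 after upper quartile scaling. The main scale gave 63.5% of called genes as higher. Median-ratio scaling gave 838 higher and 952 lower, and upper quartile scaling 883 and 905. Every one of the 692 genes called lower on the main scale stayed called lower under both, whereas 368 and 323 of the 1206 higher genes lost their call. Both rescalings moved changes downward, which favours lower calls. None of the 1898 changed sign, but this was nearly fixed in advance. Their groups do not overlap, and the smallest called changes were 0.50 for rises and 0.48 for falls. Because the scale moves all changes, list medians below are to be read against 0.18.

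Most changes were moderate. The middle 90% of tested genes lay between -2.04 and 2.06 on the log2 scale. Among called genes, the median size was 1.59 for rises and 1.88 for falls, and 650 of the 1206 rises lay between 1 and 2. Larger changes were more often falls: 72 genes fell by over 4 on the log2 scale and 40 rose by over 4. CACYBP, a binding partner of S100 proteins in the ubiquitin pathway, stands near the upper quartile of rises. It held 25.8 and 22.8 RPM without 4-OHT (clones 15 and 54, here and below) and 121 and 104 with it, a log2 fold change of 2.16 ± 0.36 (SE). BGN, the small matrix proteoglycan biglycan, stands at the median of falls, with 327 and 419 without 4-OHT and 84.8 and 119 with it (-1.87 ± 0.29). GLG1, a Golgi glycoprotein, stands near the lower quartile of falls, with 794 and 787 without and 386 and 289 with 4-OHT (-1.24 ± 0.19).

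The clones answered alike over all tested genes, of which 79.4% moved the same way in clone 15 and clone 54. Each of the 1898 called genes did so too, but that follows from their groups not overlapping. Across all tested genes the 2 clones' log2 changes correlated with a Pearson r of 0.816, and of 0.952 over the 2026 genes with a mean of at least 100 RPM. This is a description across genes that share the 4 libraries. The change was larger in clone 54 for 1139 called genes and in clone 15 for 759, and 259 called genes differed between the clones by over 1 on the log2 scale.

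**Figure D1:**
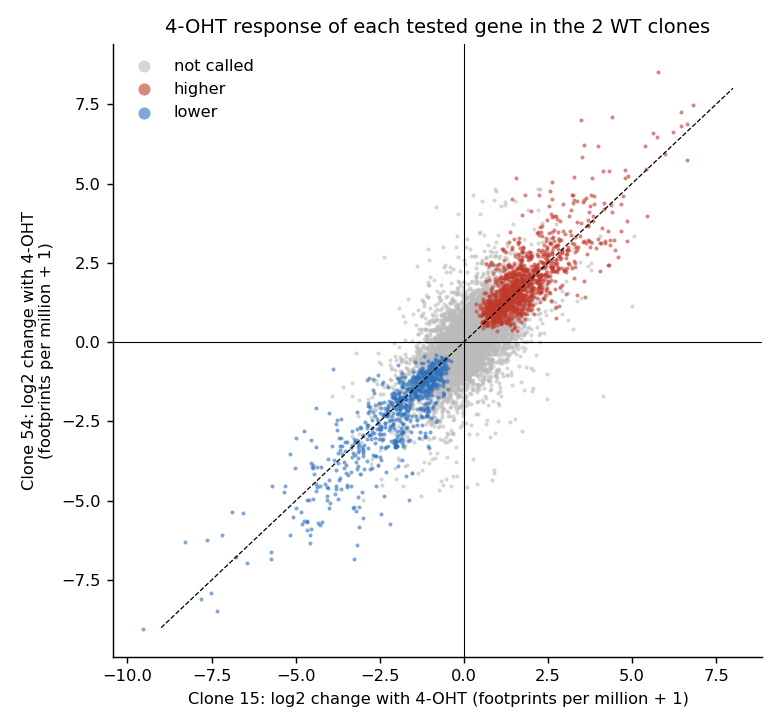
Log2 change with 4-OHT of each tested gene in clone 15 (horizontal) and clone 54 (vertical), on the log2(RPM + 1) scale, with genes called higher in red, lower in blue and the rest in grey; 5 Y-linked genes are not drawn. Called genes lie along the dashed line of equal change. All 1898 have the same sign in both clones, which follows from their groups not overlapping.

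The response moved a large share of all footprints onto other genes. Between 37.7% and 39.5% of footprints were held by different genes in a library with 4-OHT than in one without. The same measure was 8.25% between the 2 clones without 4-OHT and 11.6% between the 2 clones with it. Genes called lower held 42.9% and 42.7% of all footprints without 4-OHT and 11.2% and 10.7% with it. Genes called higher went from 14% and 13.8% to 42.1% and 44.4%. Genes not called kept between 43.1% and 46.7%. These shares were chosen on the same contrast and are a description.

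**Figure D2:**
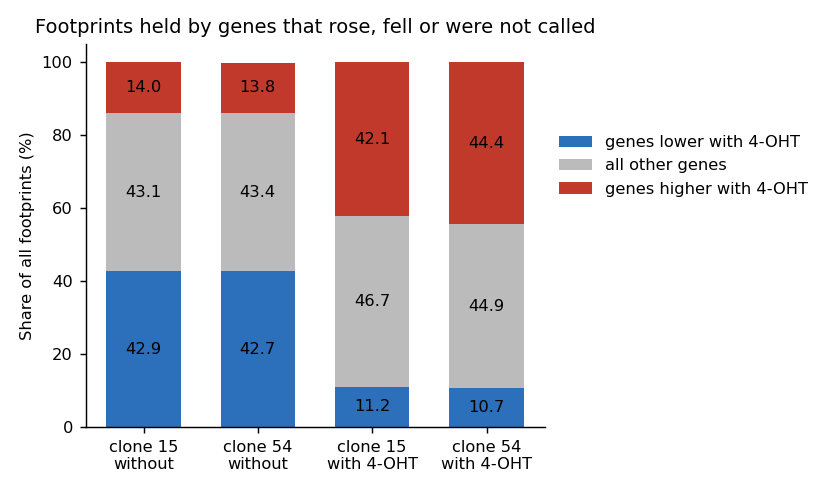
Share of all footprints (percent, vertical) held in each WT library by genes called lower (blue), genes not called (grey) and genes called higher (red) with 4-OHT. The lower genes shrink from 42.9% and 42.7% to 11.2% and 10.7%, and the higher genes grow from 14% and 13.8% to 42.1% and 44.4%.

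Translation also became spread over more genes. The 10 genes with most footprints took 14.7% and 14.4% of a library without 4-OHT and 7.82% and 8.77% with it. It took 332 and 338 genes to reach 50% of all footprints without 4-OHT, and 551 and 513 with it.

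Matrix genes and an actin crosslinker were among the genes that lost most footprints. THBS1 (thrombospondin 1, a matrix glycoprotein) held 42945 and 39463 RPM without 4-OHT and 4842 and 3577 with it (log2 fold change -3.31 ± 0.18, adjusted p = 1.92e-06). FN1, the fibronectin of the pericellular matrix, went from 10278 and 10592 to 765 and 756 (-3.78 ± 0.14). The collagen chain COL1A2 went from 29349 and 28634 to 3688 and 2654 (-3.21 ± 0.19). COL12A1 and COL5A2, chains of fibril-associated and fibrillar collagen, fell from between 5657 and 6369 to between 892 and 1092. FLNA, which crosslinks actin filaments, went from 7136 and 7548 to 1607 and 1932 (-2.06 ± 0.15). LRP1, an endocytic receptor that clears proteases and matrix proteins, went from 4497 and 4674 to 555 and 470 (-3.16 ± 0.17).

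The genes that gained most footprints were of varied kinds. VIM, the intermediate filament protein vimentin, held 5781 and 5941 RPM without 4-OHT and 17109 and 22942 with it (1.76 ± 0.17, adjusted p = 5.74e-05). LGALS1, the galactose-binding lectin galectin-1, went from 2268 and 2415 to 10401 and 10146 (2.13 ± 0.14). S100A6, a small calcium-binding protein, went from 2935 and 3603 to 10219 and 14313 (1.89 ± 0.18). In each case both treated clones lay above both untreated ones, as for every gene called higher. CCND1, the G1 cyclin D1, went from 560 and 791 to 5172 and 6840 (3.16 ± 0.21). PLAU and PLAT, the proteases that activate plasminogen, rose from between 103 and 185 to between 3031 and 4892, by 5.05 ± 0.18 and 4.66 ± 0.16. TMSB10, which binds actin monomers, went from 953 and 723 to 5138 and 4175 (2.48 ± 0.25), and ENO1, the glycolytic enolase, from 1256 and 1175 to 4376 and 4600 (1.88 ± 0.14).

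**Figure D3:**
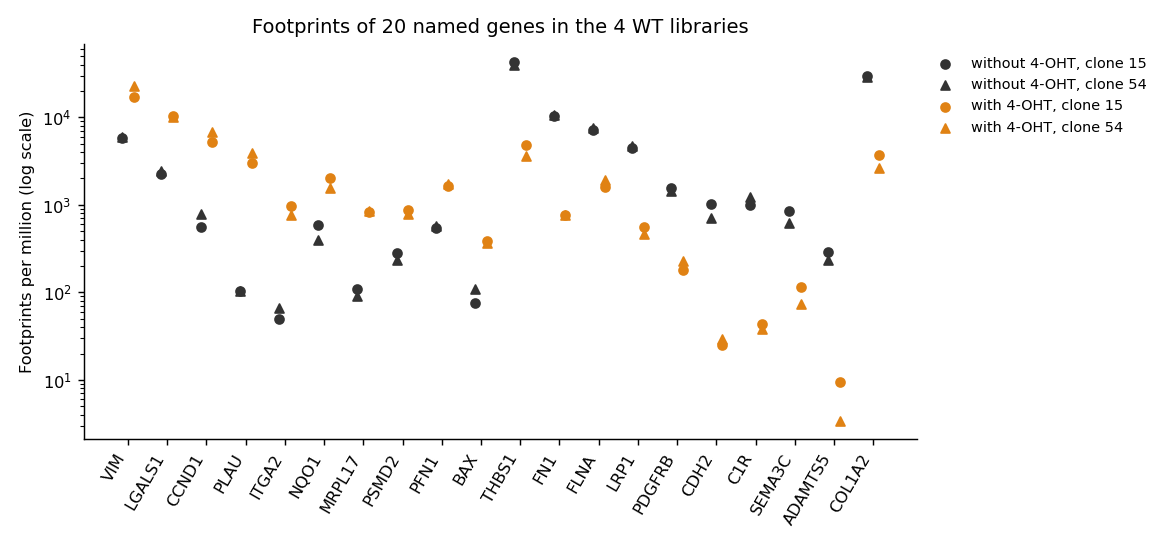
RPM (vertical, log scale) of 20 genes named in the text, in each WT library: black without and orange with 4-OHT, circles for clone 15 and triangles for clone 54. The first 10 were picked from genes called higher and the last 10 from genes called lower. Their groups do not overlap, as for every called gene and 69.9% of all tested genes.

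The next paragraphs give lists of genes by function, with shares to be read against 15.1% higher and 8.64% lower over all tested genes. Both shares grew with level, to 35.9% and 27.7% of genes with a mean from 300 to 1000 RPM. Lists were not matched for level, and its part in their shares was not tested. Among actin-associated proteins, those that turn filaments over and those that make them contract went opposite ways. Of 18 tested genes of actin turnover (actin-monomer binding, nucleation, severing and capping), 15 rose and none fell, with a median of 0.98. With any 1 WT library left out, between 10 and 12 rose, and 10 rose after either rescaling. PFN1, profilin, which feeds monomers to growing filaments, went from 541 and 577 to 1658 and 1711 (1.59 ± 0.17). CFL2, a filament-severing cofilin, went from 110 and 77 to 343 and 261 (1.69 ± 0.25), and ARPC3, a subunit of the ARP2/3 nucleator, from 94.6 and 121 to 333 and 312 (1.58 ± 0.23). Of 19 tested contractile and stress-fibre genes, 9 fell and 1 rose, with a median of -0.70. FLNC, a muscle-type filamin, went from 1035 and 1008 to 188 and 237 (-2.27 ± 0.20), and SYNPO2, a Z-disc and stress-fibre protein, from 460 and 263 to 31.3 and 8.62 (-4.31 ± 0.57). The summed level of the turnover list went from 7365 and 7102 to 18312 and 16202 and that of the contractile list from 31867 and 30263 to 14949 and 15866.

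Tubulin and microtubule genes rose in 8 of 14 tested cases and fell in none (median 0.87; between 4 and 7 higher with 1 WT library left out). STMN1, stathmin, which binds free tubulin, went from 331 and 253 to 1065 and 993 (1.83 ± 0.20), and TUBG1, the gamma-tubulin that seeds microtubules, from 61.3 and 67 to 168 and 163 (1.35 ± 0.26). Tubulin isotypes have near-identical copies, and how reads that fit several were counted is not given in the sources used here, so single tubulin values are uncertain. Kinesin motors stood apart from this: of 21 tested, 1 rose (leave-one-out 0) and 1 fell. KIF26B, a kinesin-family protein, was the faller, with 56 and 67 RPM without 4-OHT and 0.593, about 1 read, and 0 with it.

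Integrin-type genes were called in both directions, while cadherins and other adhesion molecules had more falls than rises. Of 13 tested genes picked by integrin-type symbols, 5 rose and 6 fell. With 1 WT library left out, 2 or 3 rose and between 3 and 6 fell, and 2 rose and 6 fell after either rescaling. ITGA2, the alpha chain of a collagen receptor, went from 49.2 and 67 to 975 and 772 (3.89 ± 0.22, adjusted p = 2.46e-06). ITGBL1, counted among these falls, is a secreted protein with integrin-beta-like repeats and not a receptor subunit. It went from 129 and 144 to 5.34 and 8.49 (-4.15 ± 0.46). Of 15 cadherins and other adhesion molecules, 6 fell (leave-one-out 4 to 6) and 1 rose. CDH2, N-cadherin, which joins fibroblasts to one another, went from 1031 and 707 to 25 and 29.3 (-4.93 ± 0.30), and CDH11, the mesenchymal cadherin, from 732 and 541 to 255 and 195 (-1.49 ± 0.22).

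Guidance and growth-factor receptors were among the lists with the most falls. Of 18 tested semaphorins and plexins, which are guidance ligands and their receptors, 10 fell and 1 rose, with a median of -1.15 (6 or 7 lower with 1 WT library left out). SEMA3C went from 857 and 625 to 115 and 74 (-2.98 ± 0.24), SEMA3B from 407 and 434 to 18.3 and 18.5 (-4.44 ± 0.67), and SEMA6A from 53.7 and 36.7 to 2.37 and 0. Each is a ligand of plexin receptors. Of 18 tested receptor tyrosine kinases, 9 fell and 1 rose, with a median of -1.42 (6 or 7 lower with 1 WT library left out). PDGFRB, the fibroblast receptor for platelet-derived growth factor B, went from 1545 and 1452 to 182 and 226 (-2.88 ± 0.26). IGF1R, the receptor for insulin-like growth factors, went from 164 and 185 to 43.9 and 23.8 (-2.39 ± 0.40), and ERBB2, the co-receptor of the epidermal growth factor receptor family, from 175 and 183 to 39.2 and 35.8 (-2.23 ± 0.29).

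Ligands did not follow one direction, with 5 of 14 tested growth factors higher and 5 lower (leave-one-out 3 higher, 3 to 5 lower). AREG and EREG, ligands of the epidermal growth factor receptor, were among the risers: AREG went from 0.756 (about 1 read) and 0 to 152 and 110, and EREG from 45.4 and 40.5 to 1335 and 589 (4.34 ± 0.38). FGF1, an acidic fibroblast growth factor, went from 13.6 and 6.32 to 137 and 151 (3.81 ± 0.55). In the Wnt list, 3 of 21 tested genes rose and 5 fell (median -0.66; leave-one-out 1 or 2 higher, 3 or 4 lower). WNT5A, a ligand of the noncanonical branch, went from 1406 and 1327 to 422 and 305 (-1.93 ± 0.18), and DKK1, a secreted Wnt inhibitor, from 756 and 756 to 238 and 212 (-1.74 ± 0.17). In the Notch list 4 of 13 fell (leave-one-out 1 to 4) and 1 rose: NOTCH2, a receptor, went from 619 and 487 to 239 and 207 (-1.30 ± 0.19), while the ligand gene DLL4 went from 6.81 and 0 to 86 and 127 (5.24 ± 0.86). The Hippo list gave 3 higher and 3 lower of 18 (leave-one-out 1 or 2 higher, 1 to 3 lower; 1 and 3 after either rescaling). CCN1, a secreted matricellular protein and target of YAP, went from 1064 and 851 to 2286 and 1961 (1.15 ± 0.19), and AMOTL2, which holds YAP in the cytoplasm, from 243 and 250 to 60.7 and 86.9 (-1.75 ± 0.30). Of 20 tested NF-kB pathway genes only RIPK2, a kinase that relays signals from NOD receptors, was called, going from 8.32 and 6.32 to 90.1 and 71.3 (3.30 ± 0.50).

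Several cell-death genes rose. Of 16 tested genes in a list of BCL2 family and caspase genes, which also holds CYCS, 7 were higher and none lower. The median was 1.08 (4 or 5 higher with 1 WT library left out). BAX, which permeabilises the mitochondrial outer membrane, went from 76.4 and 109 to 382 and 368 (2.03 ± 0.29). PMAIP1 (NOXA), which antagonises MCL1, went from 12 and 15 to 165 and 228 (3.76 ± 0.45). CYCS, cytochrome c, which carries electrons in respiration and activates caspases once released, went from 13.3 and 1.58 to 169 and 189 (4.89 ± 0.65). CYCS has several processed pseudogenes, so its value is uncertain.

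Complement and antigen presentation genes had more falls than rises. Of 10 tested complement components and regulators, 6 fell and 1 rose, with a median of -1.61 (5 or 6 lower with 1 WT library left out). Their log2 fold changes ran from -4.72 to 1.97. The summed level of the list changed less, from 2555 and 2987 without 4-OHT to 2490 and 2131 with it. C1R and C1S, the proteases of the classical pathway, stand side by side on chromosome 12. C1R went from 994 and 1221 to 43.3 and 38.5 (-4.72 ± 0.24) and C1S from 45.7 and 47.9 to 1.11 and 2.33. SERPING1, the inhibitor of both, went from 248 and 280 to 65.2 and 58.8 (-2.07 ± 0.21). MASP1, a protease of the lectin pathway, went from 239 and 266 to 34.8 and 47.4 (-2.60 ± 0.43), and CFI, which cleaves C3b, from 98.7 and 104 to 20.5 and 15.7 (-2.43 ± 0.32). Of 14 tested MHC class I antigen presentation genes, 6 fell and none rose, with a median of -0.46 (3 or 4 lower with 1 WT library left out). HLA-E, which is read by natural killer cells, went from 649 and 804 to 352 and 348 (-1.04 ± 0.18), and ERAP1, the aminopeptidase that trims peptides, from 686 and 609 to 342 and 264 (-1.10 ± 0.18). HLA genes resemble one another, so footprints may be split among them.

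The ADAM and ADAMTS proteases and the collagen-modifying enzymes had more falls than rises, while MMP1, PLAU and PLAT rose. MMP1, the interstitial collagenase, which is in neither list, went from 130 and 75.9 to 11635 and 11684 (6.86 ± 0.61). Of 12 tested ADAM and ADAMTS proteases, 5 fell and none rose, with a median of -1.89; between 2 and 4 fell with 1 WT library left out. ADAMTS5, the aggrecan-cleaving protease, went from 292 and 233 to 9.49 and 3.4 (-5.27 ± 0.56). Of 20 collagen-modifying enzymes and chaperones, 7 fell and 1 rose. LOX, which crosslinks collagen, went from 839 and 749 to 282 and 270 (-1.52 ± 0.15), PCOLCE, which speeds removal of the procollagen C-propeptide, from 1816 and 2408 to 438 and 705 (-1.91 ± 0.26), and SERPINH1, the collagen chaperone HSP47, from 1510 and 1744 to 402 and 400 (-2.01 ± 0.24). Serpins as a family split, with 5 of 10 higher and 2 lower (3 and 3 after either rescaling, leave-one-out 2 or 3 and 2 or 3). SERPINB7, an intracellular serpin, went from 49.2 and 36.7 to 691 and 333 (3.47 ± 0.34).

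Secretory machinery genes were called in both directions. Of 25 tested translocon and glycosylation genes, 10 rose and 4 fell, with a median of 0.59 (leave-one-out 6 to 8 higher, 1 or 2 lower). After median-ratio scaling 8 were higher and 6 lower. SSR3, a subunit of the translocon-associated complex, went from 189 and 169 to 1155 and 880 (2.49 ± 0.19), and DAD1 and OST4, small subunits of the oligosaccharyltransferase, rose by 1.77 ± 0.23 and 1.99 ± 0.31. TRAM1, which helps nascent chains into the translocon, moved the other way, from 1181 and 1079 to 234 and 183 (-2.44 ± 0.19). Of 32 COPI and COPII coat genes 3 were higher and 5 lower (leave-one-out 0 to 3 and 1 to 4; 2 and 7 after either rescaling). MIA3, which loads large cargo such as procollagen into COPII carriers, went from 271 and 228 to 106 and 79.8 (-1.43 ± 0.23). Of 32 tested RAB GTPases, 4 rose (leave-one-out 2 or 3) and none fell; 3 were higher and 1 lower after either rescaling. RAB3B, an exocytosis RAB, went from 113 and 86 to 594 and 603 (2.59 ± 0.24). In the autophagy list 5 of 27 rose and 2 fell (leave-one-out 3 higher, 0 or 1 lower). ATG12, a ubiquitin-like protein of the conjugation step, went from 12.9 and 20.2 to 91.3 and 100 (2.49 ± 0.39), and GABARAPL2, an ATG8-family protein, from 107 and 107 to 245 and 294 (1.32 ± 0.25). Of 15 vacuolar ATPase genes 2 rose (leave-one-out 1 or 2) and none fell, but 2 were higher and 3 lower after median-ratio scaling and 2 and 2 after upper quartile scaling.

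**Figure D4:**
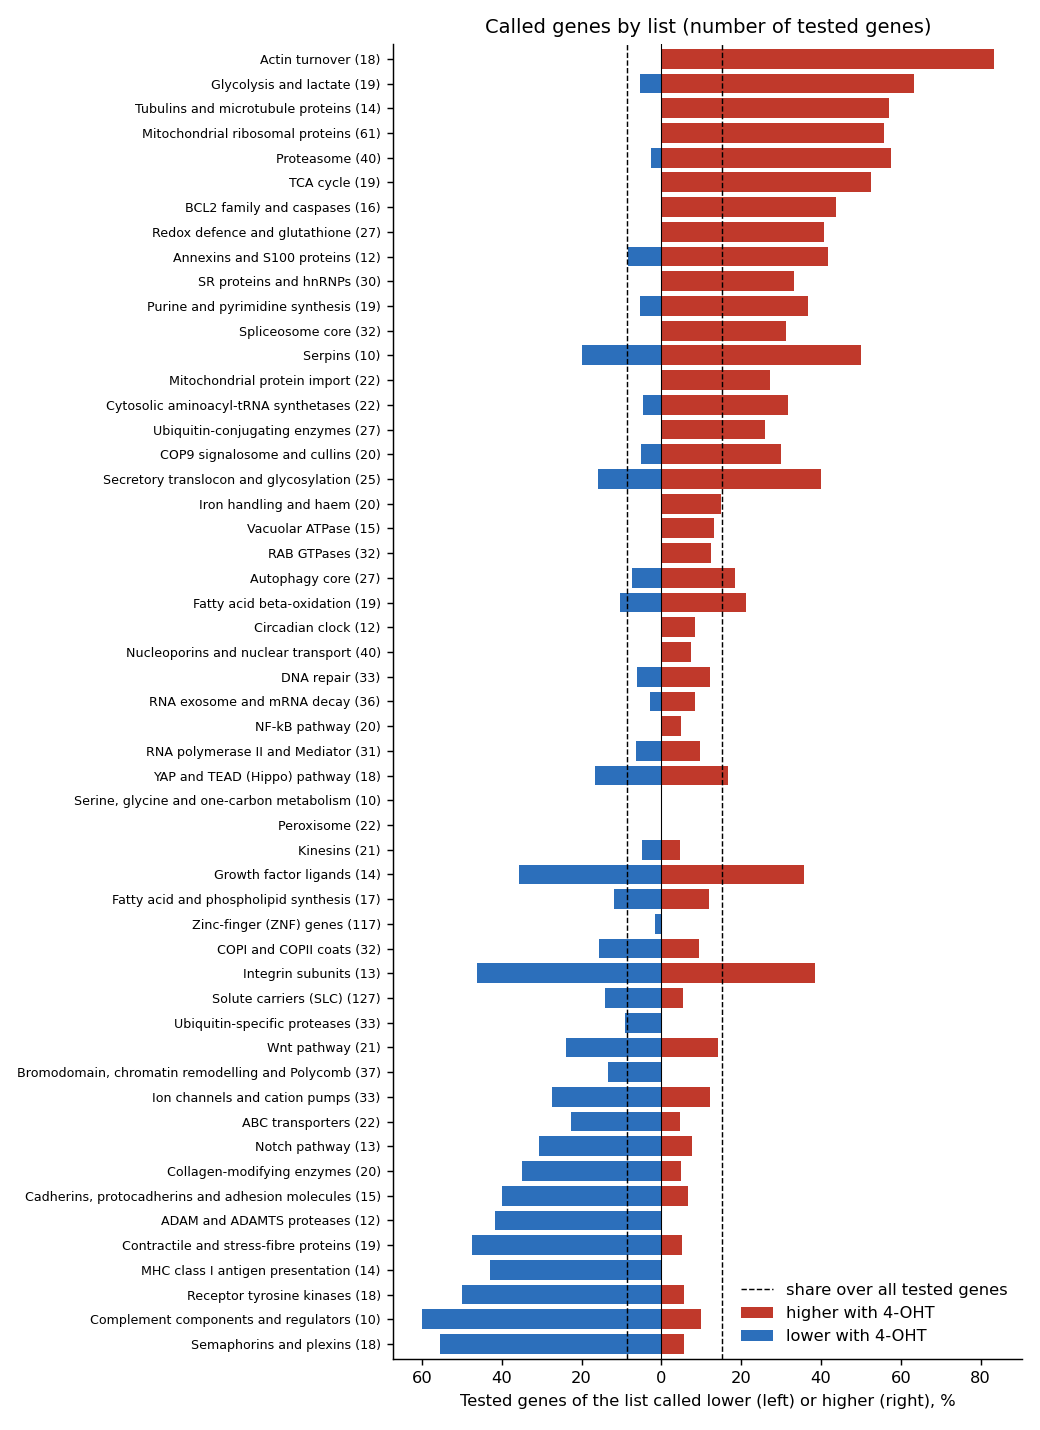
Share of tested genes called lower (blue, to the left) and higher (red, to the right) with 4-OHT in lists of at least 10 tested genes, in percent, with the number tested in brackets and dashed lines at the shares over all tested genes (8.64% and 15.1%). Actin turnover (15 of 18 higher) stands at the top and semaphorins and plexins (10 of 18 lower) at the bottom.

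Mitochondrial genes encoded in the nucleus rose in several lists. Of 61 tested mitochondrial ribosomal proteins, 34 rose and none fell, with a median of 1.31, and 59 of the 61 lay above the median of all tested genes. The count was between 12 and 21 with 1 WT library left out and 26 after either rescaling. MRPL17 went from 109 and 89.9 to 820 and 843 (3.06 ± 0.18, adjusted p = 2.85e-06), MRPL52 from 53.7 and 55.6 to 364 and 338 (2.66 ± 0.24) and MRPL36 from 13.9 and 9.06 to 103 and 109 (3.13 ± 0.39). All 3 belong to the large subunit of the mitochondrial ribosome. In the list of mitochondrial protein import 6 of 22 rose and none fell (median 1.10; 2 to 4 higher with 1 WT library left out). TOMM6, a small subunit of the outer membrane pore complex, went from 45.4 and 38.6 to 149 and 227 (2.11 ± 0.32), and TOMM34, a cytosolic cochaperone of import, from 62.8 and 43 to 178 and 192 (1.81 ± 0.29). In the TCA cycle list 10 of 19 rose (leave-one-out 6 to 8) and none fell, with the same median of 1.10. CS, citrate synthase, went from 55.9 and 58.1 to 150 and 132 (1.29 ± 0.24), IDH3B, a subunit of isocitrate dehydrogenase, from 73.3 and 61.9 to 164 and 158 (1.24 ± 0.24), SUCLG1, a succinyl-CoA ligase subunit, from 56 and 65.8 to 170 and 195 (1.57 ± 0.27) and PDHX, a component of pyruvate dehydrogenase, from 17.4 and 20.3 to 88.6 and 63 (1.93 ± 0.37). The respiratory chain subunits COX5B and COX6A1 stand near the lower and upper quartile of all rises (1.16 ± 0.19 and 2.16 ± 0.39). Fatty acid beta-oxidation did not follow: 4 of 19 rose and 2 fell (leave-one-out 1 to 3 higher, 0 lower). ECI2, an enoyl-CoA isomerase, went from 67.2 and 75.7 to 287 and 205 (1.75 ± 0.29).

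Glycolysis rose beside the TCA cycle. Of 19 tested glycolysis and lactate genes, 12 rose and 1 fell (median 0.94; between 7 and 9 higher with 1 WT library left out). TPI1, triose-phosphate isomerase, went from 178 and 186 to 514 and 571 (1.57 ± 0.19), and ENO2, the enolase form best known from neurons, from 13.3 and 17.2 to 86 and 87.6 (2.44 ± 0.37). In the pentose phosphate list 1 of 7 was called: TALDO1, transaldolase, went from 303 and 310 to 777 and 718 (1.28 ± 0.15). Redox genes rose in 11 of 27 tested cases and fell in none (median 0.63; between 6 and 8 higher with 1 WT library left out, 7 after either rescaling). NQO1, a quinone reductase, went from 581 and 399 to 2035 and 1563 (1.89 ± 0.21), TXN, thioredoxin, from 284 and 197 to 988 and 781 (1.89 ± 0.21), GPX1, a glutathione peroxidase, from 65.8 and 39.2 to 400 and 339 (2.83 ± 0.30), and SOD1, the cytosolic superoxide dismutase, from 172 and 162 to 472 and 413 (1.40 ± 0.20). In purine and pyrimidine synthesis 7 of 19 were higher and 1 lower. PAICS, of the purine pathway, went from 132 and 108 to 447 and 355 (1.73 ± 0.32), and RRM2B, the ribonucleotide reductase subunit used outside S phase, from 59.5 and 36.5 to 283 and 144 (2.09 ± 0.38).

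The metabolic lists in this paragraph were called near or below the shares over all tested genes (15.1% higher and 8.64% lower). Fatty acid and phospholipid synthesis had 11.8% each way, and iron and haem had 15% higher. None of 10 tested serine, glycine and one-carbon genes and none of 22 peroxisome genes passed the test. Of 17 genes of fatty acid and phospholipid synthesis 2 rose and 2 fell (leave-one-out 1 or 2 and 0 to 2; 1 and 3 after either rescaling). SCD, the stearoyl-CoA desaturase, went from 95.3 and 84.7 to 332 and 323 (1.85 ± 0.23). Of 20 iron and haem genes 3 rose (leave-one-out 1 to 3, 1 after median-ratio scaling), among them HMOX2, the constitutive haem oxygenase, from 38.5 and 51.8 to 214 and 170 (2.07 ± 0.29).

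Proteasome genes were called higher more often than genes over all. Of 40 tested proteasome genes, 23 rose and 1 fell, with a median of 0.83. Between 9 and 17 rose with 1 WT library left out, and 15 rose after median-ratio and 17 after upper quartile scaling. PSMD2, a subunit of the regulatory cap, went from 285 and 234 to 863 and 795 (1.68 ± 0.19), PSMB6, a catalytic subunit, from 194 and 153 to 494 and 584 (1.63 ± 0.19), and PSMD7, a cap subunit, from 109 and 64.5 to 293 and 329 (1.88 ± 0.31). Ubiquitin-conjugating enzymes were higher in 7 of 27 cases (leave-one-out 2 to 4, 4 after either rescaling) and lower in none. UBE2L3 went from 18.9 and 12.6 to 144 and 192 (3.34 ± 0.36) and UBE2N, which builds K63-linked chains, from 35.6 and 21.5 to 144 and 148 (2.36 ± 0.33). Ubiquitin-specific proteases, which remove ubiquitin, gave 3 lower (leave-one-out 1 or 2) and none higher of 33. USP11 went from 271 and 282 to 120 and 145 (-1.06 ± 0.20). In the COP9 signalosome and cullin list 6 of 20 rose (leave-one-out 3 to 6) and 1 fell. COPS6 went from 274 and 277 to 889 and 861 (1.66 ± 0.18) and COPS9, the smallest subunit of the complex, from 4.55 and 1.27 to 65.3 and 49.3 (4.03 ± 0.70).

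Splicing genes were called higher in part. Of 32 tested spliceosome core genes 10 rose and none fell (median 0.79), but only between 2 and 5 rose with 1 WT library left out, and 3 were lower after either rescaling. SNRPD2, an Sm ring protein, went from 145 and 141 to 605 and 568 (2.03 ± 0.18), and SF3B5, a subunit of the branch-site complex, from 64 and 75.5 to 253 and 306 (1.98 ± 0.25). Of 30 SR proteins and hnRNPs 10 rose and none fell (median 0.63; leave-one-out 5 to 7, 6 after either rescaling). SRSF7 went from 79.4 and 62 to 171 and 160 (1.22 ± 0.23) and HNRNPC from 66.5 and 54.3 to 177 and 151 (1.43 ± 0.26). Of 37 chromatin-remodelling, bromodomain and Polycomb genes 5 fell (leave-one-out 1 to 5, 10 after median-ratio scaling) and none rose, with a median of -0.50. Of 117 tested zinc-finger (ZNF) genes none rose and 2 fell (median -0.24; leave-one-out 0 or 1 lower). The tables share 346 such genes, and those not tested had too few reads or no span, so no response could be detected for them at this depth. Counts near or below the background were seen for 36 genes of RNA decay (3 higher, 1 lower; EXOSC1 rose by 2.05 ± 0.36), 31 of RNA polymerase II and Mediator (3 and 2), 40 of nuclear transport (3 and none) and 33 of DNA repair (4 and 2). Leave-one-out counts of higher genes in these 4 lists were 1 or 2, 0 or 1, 0 to 2 and 0 or 1. After either rescaling RNA decay gave 3 higher and 4 lower, RNA polymerase II and Mediator 2 and 2, nuclear transport 1 and 4 and DNA repair 1 and 2. PRKDC, the DNA-dependent protein kinase, was among the latter falls, from 770 and 589 to 282 and 275 (-1.27 ± 0.19). Cytosolic aminoacyl-tRNA synthetases gave 7 higher and 1 lower of 22 on the main scale but none higher and 2 lower after median-ratio scaling, and leave-one-out counts of 0 to 2 higher.

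Membrane transport genes fell on balance. Of 127 tested solute carriers 18 fell and 7 rose, with a median of -0.31, and 39 of the 127 lay above the median of all tested genes. Between 6 and 15 fell with 1 WT library left out, and 28 fell after median-ratio scaling. SLC38A11, of the amino acid transporter family SLC38, went from 384 and 359 to 15.3 and 3.5 (-5.44 ± 0.49). SLC20A1, a sodium-dependent phosphate importer, went against the list, from 131 and 143 to 2804 and 2475 (4.26 ± 0.24, adjusted p = 2.25e-06). Of 33 ion channels and pumps 9 fell (leave-one-out 6) and 4 rose (2 or 3, and 2 after either rescaling). ANO3, of the anoctamin family, went from 457 and 355 to 3.21 and 2.29 (-6.76 ± 0.49). CLIC1, a chloride intracellular channel protein, went from 355 and 304 to 1575 and 1553 (2.25 ± 0.17), and TRPV2, a cation channel, from 46.9 and 46.8 to 198 and 158 (1.89 ± 0.32). Of 22 ABC transporters 5 fell (leave-one-out 1 to 3) and 1 rose. ABCC3, an exporter of organic anions, went from 79.4 and 75.9 to 19 and 17 (-2.05 ± 0.36).

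Some genes went to or came from a level at which no read was counted. KCTD4 was at 0 in both libraries without 4-OHT and at 99 and 52.2 with it, at least 24.9-fold higher than the mean level that 3 reads per library would give. CST1, a secreted inhibitor of cysteine proteases, was at 0 without and at 61.6 and 59.9 with 4-OHT, at least 20-fold higher on the same floor. SULF1, which removes 6-O-sulfate from heparan sulfate, went from 745 and 527 to 0 and 0, at least 185-fold lower. PREX2, a RAC exchange factor, went from 225 and 273 to 0 and 0, at least 72.4-fold lower. CHRM2, a muscarinic acetylcholine receptor, went from 258 and 358 to 0.593 (about 1 read) and 0, and COL15A1, a basement-membrane collagen, from 292 and 240 to 0.592 and 0. In all, 273 genes of both tables were at 0 in both WT libraries without 4-OHT and 202 in both with it, and 53 of these were at 0 in all 4. The limits from 3 reads cover counting error only.

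Another 861 genes were listed only in the table without 4-OHT and 394 only in the table with it, and these entered no test. They held 0.141% and 0.0517% of footprints. Most were near 0 in the libraries that list them, with medians of 0.378 and 0.301 RPM, and 20 and 8 of them reached a mean of 10. KRT4, a keratin of wet epithelia, stood at 215 and 244 and CYP2A13, a cytochrome P450, at 121 and 122 in the untreated clones. HAS2, a hyaluronan synthase, stood at 66.4 and 102 and G0S2, an inhibitor of adipose triglyceride lipase, at 28.5 and 34 in the treated clones. What an unlisted gene's value was in the other state was not analysed here, so no fold is given.

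Long genes fell more often than short ones. Of 643 tested genes spanning under 5 kb, 32.5% rose and 4.67% fell, with a median of 0.76. Of 295 genes spanning over 300 kb, 9.83% rose and 18% fell, with a median of -0.30. The 4 classes between gave medians of 0.53, 0.31, 0.11 and -0.18. Spearman's rank correlation of span and log2 fold change was -0.244 across the 8012 genes, a description of genes that share libraries. Gene span moves with several lists above: the median span was 8.67 kb for mitochondrial ribosomal proteins, 14.4 kb for the proteasome and 77.2 kb for receptor tyrosine kinases, against 34.6 kb over all tested genes. Its part in those lists was not tested. It was 34.8 kb for actin turnover, 35.3 kb for the TCA cycle, 35.5 kb for contractile genes and 7.56 kb for MHC class I genes.

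The remaining lists were small. Annexins and S100 proteins gave 5 higher and 1 lower of 12 (4 and 3 after median-ratio scaling). Higher and none lower were 2 of 5 intermediate filament and lamin genes (leave-one-out 1 or 2, 1 after either rescaling), 2 of 4 of polyamine synthesis (0 or 1), 1 of 2 metallothioneins (0 or 1) and 1 of 12 circadian clock genes (0 or 1). After either rescaling metallothioneins gave 0 higher and 1 lower. None of 3 HOX genes was called.

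The power to call a gene followed its level. Below a mean of 10 RPM 1.01% of genes were called higher and 1.35% lower, with a median SE of 1.13. Above 1000 the shares were 36.1% and 41% with a median SE of 0.17. The shares over all genes are thus set largely by genes for which only large changes could be called.

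**Figure D5:**
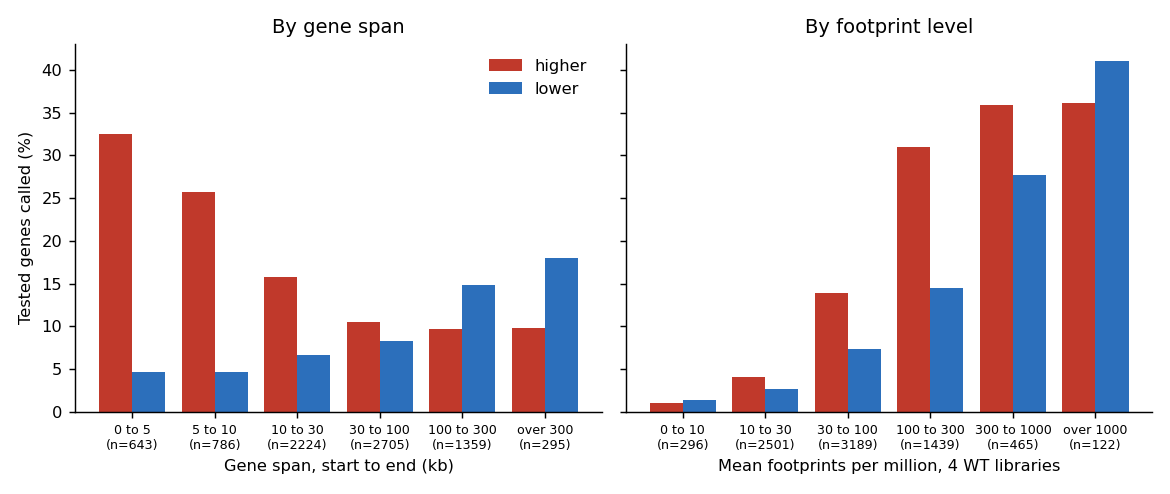
Share of tested genes called higher (red) and lower (blue), in percent, by gene span in kb (left) and by mean RPM over the 4 WT libraries (right), with the number of genes in brackets. The higher share falls from 32.5% under 5 kb to 9.83% over 300 kb while the lower share grows from 4.67% to 18%, and both shares grow with level.

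By chromosome the shares of higher genes lay between 10.8% (chromosome 19) and 16.7% (chromosome 21), with chromosome 6 apart at 24.2% of 459 tested genes. Chromosome 6 held 5 runs of neighbouring tested genes all called higher, which together held 34 histone genes of the HIST1 clusters. Histone genes have near-identical copies, so single values there are uncertain. On chromosome 1, S100A6, S100A4, S100A16 and CHTOP formed such a run (153534599 to 153646306 in GRCh38.p14). CHTOP lost its call with any 1 WT library left out and after median-ratio scaling. S100A4 went from 434 and 417 to 1643 and 2089 (2.12 ± 0.18) and S100A16 from 85.5 and 88.6 to 511 and 542 (2.58 ± 0.25). On chromosome 2, DPP4, FAP, IFIH1, COBLL1 and SLC38A11 formed a run of 5 lower genes (161992245 to 164955525). DPP4 lost its call without untreated clone 15, untreated clone 54 or treated clone 54, and IFIH1 without untreated clone 54.

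The longest run is 1 signal counted many times. On chromosome 5, all 22 tested protocadherin gamma genes (141330514 to 141512975) were called lower. Their spans all end at the same base, since these genes splice different first exons to shared last exons. In 13 of the 22 the value in every WT library lay within 5% of the median of the 22 (172 and 241 without 4-OHT, 41.9 and 23.8 with it). Counted as 1 gene, they leave 671 lower genes in place of 692. In addition, 5 gene symbols occur under 2 identifiers and were tested once for each.

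Promoters of the genes that changed were searched for 8 short motifs in the RefSeq promoter table (GRCh38.p14, 250 bases before to 50 after each gene's start), which held 6701 of the tested genes, 6680 of them with a window of their own. Both strands were searched, and an N stands for any base. The TATA box (TATAAA), which positions the start of transcription in a minority of genes, was present in 8.94% of 1018 promoters of higher genes, 7.05% of 553 of lower genes, 4.52% of 5109 of tested genes not called and 12% of all 27305 promoters in the table. Within the 100 bases before the start these shares were 5.5%, 3.98%, 1.82% and 5.34%. Histones hold part of this. Without 43 histone genes the share in higher genes was 6.26% in the whole window and 3.18% in the 100 bases, below the 7.05% and 3.98% of lower genes and above the 4.45% and 1.74% of genes not called. With histone genes kept, the whole-window share was 11.8% among called genes that rose at least 4-fold and 7.82% among those that fell at least 4-fold. The CCAAT box (CCAAT) was in 41.7% of higher, 33.3% of lower and 36.3% of uncalled genes, against 35.7% of all promoters. GAAANNGAA, part of the interferon-response element, was in 7.76%, 9.58% and 5.93%, against 8.29%. The AP-1 motif TGANTCA was in 5.7%, 5.61% and 3.99%, against 7.76%. For the E2F motif TTTNNCGC the shares were 11.1%, 9.22% and 11.5%, against 6.9%. For TGACNNNGC, of the antioxidant element, they were 15.6%, 13.7% and 15.5%, against 13.6%. The sterol element TCACNCCAC was in 1.28%, 1.81% and 1.02%, against 1.15%, and the ATF4 motif TGATGCAA in 0.786%, 0.904% and 0.391%, against 0.923%. These are descriptions of letters in a window, with no test.

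The sequences below show where the match lies in strong responders. They are 60 bases before the start, read 5′ to 3′ on the gene's strand, for genes among the 20 largest rises or falls whose promoter holds the motif most raised over uncalled genes in that direction (TATAAA for rises, GAAANNGAA for falls, of motifs in at least 30 promoters). That choice was made after the shares were seen. Of 14 largest rises with a promoter in the RefSeq set, 3 held TATAAA, and of 12 largest falls 1 held GAAANNGAA. Capitals mark the match on either strand.
CXCL8: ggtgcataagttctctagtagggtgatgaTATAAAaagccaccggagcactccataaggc
AREG: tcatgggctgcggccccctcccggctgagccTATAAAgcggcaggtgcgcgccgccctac
HIST1H4L: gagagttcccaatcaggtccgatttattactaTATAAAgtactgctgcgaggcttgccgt
TENM2: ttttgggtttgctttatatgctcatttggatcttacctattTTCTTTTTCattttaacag
These are chr4:73740509-73740568 (CXCL8, plus strand), chr4:74445076-74445135 (AREG, plus strand), chr6:27873535-27873594 (HIST1H4L, minus strand) and chr5:167073182-167073241 (TENM2, plus strand). The TATA match begins 31, 29 and 28 bases before the start in the 3 higher genes, CXCL8 (the chemokine interleukin-8), AREG and HIST1H4L (a histone H4). In TENM2, a teneurin adhesion receptor, the capitals hold the reverse complement of GAAANNGAA, 19 bases before the start. This match lies in a stretch rich in T and C, with AG just before the start. Whether the stretch acts as a promoter or answers interferon was not tested.

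The same response in the knockout clones differed for no gene in a test of the difference. The interaction of 4-OHT with genotype called 0 of 8012 genes with limma-trend (lowest adjusted p = 0.531), with 332 genes at an unadjusted p under 0.05. Of the 1898 genes called in the WT clones, 1837 moved in the same direction in both knockout clones. The matching share over all tested genes was not counted, so this number has no baseline beside it. With limma-voom on estimated reads 4 genes were called: THBS1, TAGLN, CITED2 and COL1A1. CITED2, a transcriptional coregulator, changed by -3.27 and -3.45 on the log2 scale in knockout clones, and its WT response was less negative by 1.32 ± 0.23. TAGLN, the actin-binding protein transgelin, changed by -2.10 and -1.74 in WT and by -3.65 and -3.12 in knockout clones, and THBS1 by -3.15 and -3.46 and by -4.43 and -4.04. COL1A1 fell further in WT clones (-4.46 and -4.16) than in knockout clones (-3.52 and -3.08). Knockout clone 66 with 4-OHT had about 190851 footprints, the fewest of the 8 libraries.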

How the data were processed

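Ribosome footprints were sequenced from 8 BJ-HRAS libraries, 2 clones in each of 4 groups. The authors deposited 1 table without and 1 with 4-OHT, and the values in both read as RPKM over each gene's genomic span, introns included. That unit was inferred from the values, since no header or label states it. The submitters' processing notes name STAR and GRCh38, with no version; the counting tool is not given in the sources used here. RPKM values were multiplied by RefSeq gene spans to give RPM (footprints in each 1000000 reads), and depth was estimated from the step between low values (75.7% to 81.2% of low values lay within 0.1 of a whole read).

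Genes with at least 10 estimated reads in at least 2 of the 4 WT libraries were tested with limma 3.58.1 (limma-trend, R 4.3.3) on log2(RPM + 1). All 8 libraries were fitted as 4 groups and p-values adjusted by Benjamini-Hochberg over all tested genes, at 0.05. Fold changes on this scale understate those of low genes. An exact permutation test of 2 against 2 has 3 splits and cannot reach 0.05. Same-numbered libraries are the same clone, so they are paired, but the main fit had no term for clone. Deviations of the WT clones without and with 4-OHT correlated at r = 0.097 across tested genes. A fit with clone as a block gave 1165 higher and 683 lower genes.

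Genes were named by fixed rules (up to 4 called genes a list, the largest gains, losses and changes, and genes at percentiles or at 0), and mostly those whose call held under every alternative were then kept, a choice made after calls were seen. Genes in neighbour runs, promoter examples and the voom calls were named after their values were seen. The members and gene lists were chosen with earlier results of these data known. The tests were checked on simulated data. Some results are not reported here.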

Additional observations from a re-analysis of the deposited data

Results flagged for a closer look

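Of the genes called in the WT clones, 2 moved one way in both WT clones and the other way in both knockout clones. NDUFAF7, an assembly factor of respiratory complex I, changed with 4-OHT by 1.74 and 2.87 on the log2 scale in clones 15 and 54 and by -1.28 and -0.13 in clones 66 and 69. Its levels in the WT clones were 20.6 and 8.61 RPM without and 71.3 and 69.3 with 4-OHT. ATP9A, a phospholipid flippase, changed by -1.23 and -0.95 in the WT clones and by 0.38 and 0.21 in the knockout clones. It held 79.3 and 85.9 RPM without and 33.2 and 44.1 with 4-OHT in the WT clones. In limma's interaction test neither difference passed (adjusted p = 0.857 for each).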

How the results depend on the processing

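The counts of called genes moved most with the libraries used. Against 1206 higher and 692 lower genes, a fit to the 4 WT libraries alone gave 1920 and 1161 and limma-voom on estimated reads gave 1853 and 1095. With 1 library left out the counts ran from 594 to 1734 higher and from 353 to 1104 lower, the highest without knockout clone 66 with 4-OHT. The clone as replicate block gave 1165 and 683. The median log2 fold change of all tested genes was 0.07 on log2(RPKM + 1), -0.08 after median-ratio and -0.04 after upper quartile scaling, against 0.18. The interaction with genotype called 4 genes with limma-voom and 0 in the main analysis. Counting the protocadherin gamma genes as 1, chosen after seeing the data, gave 671 lower genes. None of the 1898 called genes changed sign under any of the 17 alternatives in which it was tested. Of them, 1736 were tested with at least 30 reads and 1812 without ribosomal protein, histone and mitochondrially encoded genes. That signs held was nearly fixed in advance, since the groups of called genes do not overlap and their smallest changes exceed the rescaling shift. Genes under about 10 RPM could be called only for large changes.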
